A study of Drosophila melanogaster with 2 samples.

Results

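The genes studied here encode the general machinery of RNA polymerase II transcription in Drosophila melanogaster: the TATA-binding protein family, the TBP-associated factors (TAFs) of TFIID, the factors TFIIA, TFIIB, TFIIE, TFIIF, TFIIH and TFIIS, the polymerase subunits, and the TAF paralogs of the testis. They were chosen by symbol among the protein-coding genes of the Ensembl BDGP6 annotation, and 47 of the 13945 genes on the 6 main chromosome arms met the rule. The data were peaks of chromatin immunoprecipitation and sequencing (ChIP-seq) of Medea, the common-mediator Smad of the fly, which carries Dpp and activin signals into the nucleus. The only group was a transgenic line that stably expressed Med with GFP at its C terminus, collected as whole embryos of mixed sex between 0 and 24 h of age and precipitated with an antibody against GFP. It had 2 biological replicates, numbered 2 and 3 and taken from separate biosamples. There was no second condition, so the values below describe occupancy and not a response. Whole animals of many stages and tissues were pooled, the protein measured was the tagged one, and an occupied promoter cannot be assigned to a cell type. A gene is called occupied where a summit of the reproducible dm6 peak list lay within 1000 bp of 1 of its annotated start sites (TSS). Signal is the value that the authors gave each peak. Its scale is not stated in the labels or manifests, so signals are compared within a list, and a replicate ratio is read only against its median over all peaks. The reproducible list was identical to the top 5867 peaks, with signals of 164.6 and above, of a longer list for which the replicates were called jointly.

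TFIID, built of TBP and the TAFs, recognises the core promoter. TFIIA and TFIIB stabilise it and bring in the polymerase, TFIIF escorts the polymerase, and TFIIE and TFIIH complete the complex. TFIIH opens the DNA, and its kinase phosphorylates the polymerase tail. TFIIS restarts stalled polymerase during elongation. In the male germ line, the paralogs can, sa, mia, nht and rye (Taf12L in the annotation) are needed in primary spermatocytes to transcribe the genes of spermatid differentiation. The canonical factors act in all cell types.

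The following sequences come from the Release 6 genome (dm6) and are written along the strand of the gene. They are shown because the later results on summits, promoter words and testis paralogs refer to them. In the first and second sets, each is the stretch within 60 bases to either side of the summit that lies outside annotated exons. Capitals mark CGATA on either strand, the core word bound by the insulator protein BEAF-32, which is also part of the DRE (TATCGATA), and they mark CAGTGT on either strand, the E-box CAGCTG and the core GGTCACAC of Motif 1. The last 3 are words of promoters of broadly expressed genes or, for CAGTGT, a word that was more frequent at Med summits than beside them. The first set holds windows of occupied polymerase, TFIIA and TFIID genes: genes alone at their summit, and Polr2J, which carries CGATA and CAGTGT.
Polr2F, chr3R:5371745-5371794, plus strand: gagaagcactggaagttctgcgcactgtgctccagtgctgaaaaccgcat
TfIIA-S, chr3R:23891061-23891181, minus strand: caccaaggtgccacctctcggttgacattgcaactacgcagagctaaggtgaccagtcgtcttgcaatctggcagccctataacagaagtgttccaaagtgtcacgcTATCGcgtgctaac
Taf4, chr3L:16113628-16113748, plus strand: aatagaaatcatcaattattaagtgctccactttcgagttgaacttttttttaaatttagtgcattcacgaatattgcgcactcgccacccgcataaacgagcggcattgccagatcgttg
Polr2J, chr2L:17410528-17410640, minus strand: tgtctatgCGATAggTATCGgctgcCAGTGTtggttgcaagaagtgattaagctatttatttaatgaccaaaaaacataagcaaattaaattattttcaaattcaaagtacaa
Taf9, chrX:17842040-17842160, plus strand: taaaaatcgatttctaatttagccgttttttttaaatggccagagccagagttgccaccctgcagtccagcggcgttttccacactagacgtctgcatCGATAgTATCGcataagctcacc
The second set comes from members just below or well below the limit of the reproducible list, chosen for the promoter words they carry. The summit shared by Taf10b and Taf10 lies outside the printed stretch, in the 5′ UTR of Taf10b. In the window of Taf6 the word CAGTGT overlaps the Motif 1 core.
Taf10b, chr2L:2767846-2767886, minus strand: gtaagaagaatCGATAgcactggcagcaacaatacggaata
Polr2D, chr3R:18255488-18255529, minus strand: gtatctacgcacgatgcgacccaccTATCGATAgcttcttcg
Taf6, chr3L:19598756-19598861, plus strand: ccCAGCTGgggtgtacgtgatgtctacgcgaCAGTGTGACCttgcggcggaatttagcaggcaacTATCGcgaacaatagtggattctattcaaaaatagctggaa
The third set holds the 120 bases before the start site of the 4 testis TAF genes, none of which had a reproducible summit, and of Taf4, the general paralog of nht. The window of Taf4 lies before its most upstream start, and the summit above lies before an internal start.
can, chr3L:10267112-10267231, minus strand: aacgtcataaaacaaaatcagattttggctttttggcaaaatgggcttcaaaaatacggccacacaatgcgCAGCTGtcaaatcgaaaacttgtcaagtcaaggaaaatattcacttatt
sa, chr3L:21406739-21406858, minus strand: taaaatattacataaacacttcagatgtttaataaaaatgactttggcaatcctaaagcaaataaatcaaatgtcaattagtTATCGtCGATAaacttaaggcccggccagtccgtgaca
mia, chr3R:5551169-5551288, minus strand: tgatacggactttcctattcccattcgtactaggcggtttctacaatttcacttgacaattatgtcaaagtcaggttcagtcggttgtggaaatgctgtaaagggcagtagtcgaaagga
nht, chr2L:15318902-15319021, minus strand: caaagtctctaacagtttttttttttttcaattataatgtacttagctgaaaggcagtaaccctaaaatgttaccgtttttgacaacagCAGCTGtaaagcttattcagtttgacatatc
Taf4, chr3L:16113092-16113211, plus strand: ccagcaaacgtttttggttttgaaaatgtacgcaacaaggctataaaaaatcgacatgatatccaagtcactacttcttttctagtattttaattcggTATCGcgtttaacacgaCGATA

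Of the 47 genes, 19 (40.4%) were occupied, against 4360 of 13945 protein-coding genes (31.3%). Among as many strongest peaks of replicate 2 alone, 21 members had a promoter summit (44.7%, against 29.7% of all genes), and in replicate 3 alone it was also 21 (44.7%, against 31.8%). The occupied members were Taf2, Taf4, Taf7, Taf9 and Taf13 of TFIID, Trf2 of the TBP family, TfIIA-S, TfIIA-L, TfIIB, Ssl1, Xpd and hay of TFIIH, TfIIS, and Polr2B, Polr2C, Polr2E, Polr2F, Polr2H and Polr2J of the polymerase. In TFIIE 0 of 2 genes were occupied, in TFIIF 0 of 2 and among the testis TAFs 0 of 4, groups too small to set against a share of 31.3%. In the whole relaxed list of both replicates, which runs down to a signal of 45.0 over 30000 peaks, 38 members had a promoter summit (80.9%, against 63.2% of all genes). Thus 19 of the 28 members that were not occupied had a weaker promoter peak and 9 had none in that list. The 2 members without a promoter summit in any of the lists were Taf3 and TfIIFbeta.

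The share of occupied genes varied with the number of start sites and with the neighbours. Of the 40 members with 1 annotated TSS, 13 were occupied (32.5%), against 24.9% of all genes with 1 TSS. A divergent neighbour, whose start lay within 1000 bp upstream on the opposite strand, was found for 29 members (61.7%), against 36.2% of all genes. Among these 29, 14 were occupied (48.3%), against 52.3% of all genes with such a neighbour. Among the 18 members without it, 5 were occupied (27.8%), against 19.3%. Within each class the members' count was near the background. No test was made of any of these shares, since the genes were chosen with results of these data known and neighbours can share a summit.

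**Figure D1:**
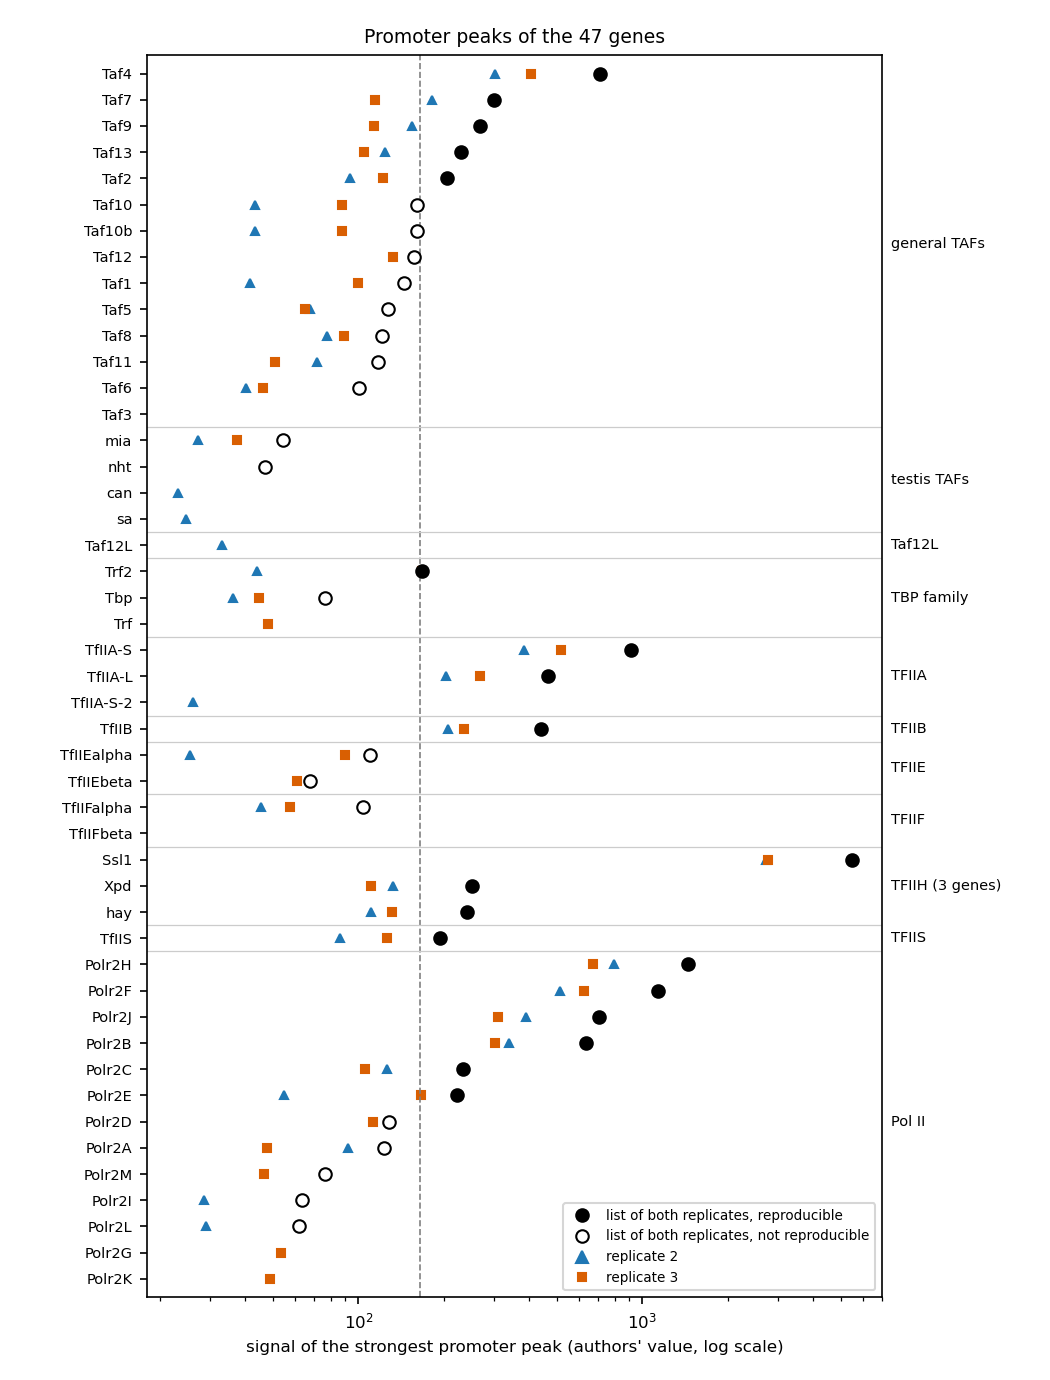
Signal of the strongest promoter peak of each of the 47 genes (x axis, authors' value, log scale), grouped by complex. Circles are the list of both replicates, filled where the peak was reproducible, triangles replicate 2 and squares replicate 3, a missing mark is a list without a promoter peak, and the dashed line is the lowest signal of the reproducible list, 164.6, which applies to the circles only. Ssl1 stands at 5499, far right of every other gene, all testis genes lie at the left edge, and the square of Trf2 is hidden behind its circle.

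Of the 14 general TAF genes, 5 were occupied (35.7%, beside 31.3% of all genes). Taf4, the histone-fold TAF that holds TFIID together, had the strongest peak of the family, with a signal of 710.5 in the list of both replicates, 304.2 in replicate 2 and 407.3 in replicate 3. Its summit lay in an intron of Taf4 (peak chr3L:16113493-16113838), 102 bp before an internal start, and no other gene had a TSS within 1000 bp. Taf7, which binds Taf1 and restrains its enzyme activity, had 301.3 in both replicates together, 182.5 in replicate 2 and 114.1 in replicate 3, at a summit shared with EMC1. Taf9, known as e(y)1 and the histone-fold partner of Taf6, had 268.7, with 154.6 in replicate 2 and 113.7 in replicate 3, and was alone at its summit 61 bp before its start. Taf13, the partner of Taf11, had 230.7, 123.7 in replicate 2 and 105.1 in replicate 3. That summit lay in the 5′ UTR of the divergent gene nesd, 59 bp from the start of nesd and 187 bp from that of Taf13. Taf2, which contacts the core promoter, was the weakest of the occupied TAFs at 205.3. Its summit was 5 bp from the start of CalpB and 74 bp from its own.

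The other 9 general TAF genes fell short of the reproducible list by different margins. Taf10 and Taf10b, histone-fold paralogs that lie head to head with 45 bp between their starts, shared a peak of 160.4, ranked 6047, just outside the last reproducible rank. Taf12 followed at 157.4, ranked 6181. Replicate 3 ranked its peak, at 132.8, among the top peaks, and replicate 2 had no promoter peak there. Taf1, the scaffold of TFIID, had 145.2, and Taf5, Taf8, Taf11 and Taf6 had 127.7, 120.8, 117.4 and 100.8. The summit of Taf11 lay 12 bp from the start of und and 239 bp from its own. That of Taf6 was also nearer a neighbour, ash1, whereas those of Taf5 and Taf8 were nearer their own start. Taf5, Taf8 and Taf11 were in the top list of replicate 2 and not in that of replicate 3. Thus 8 general TAF genes were called in replicate 2 (57.1%, against 29.7% of all genes) and 6 in replicate 3 (42.9%, against 31.8%). In the relaxed list of both it was 13 (92.9%, against 63.2%), and Taf3, on chromosome 4, was the only one without a promoter peak.

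None of the testis TAF genes was occupied, and none entered the top list of either replicate. nht, the paralog of Taf4, had a peak of 46.7 ranked 28716, 831 bp upstream, in the list of both replicates, and none in either replicate list. mia, the paralog of Taf6, had 54.1 at 708 bp, with 27.3 in replicate 2 and 37.5 in replicate 3. can, the paralog of Taf5, had only a peak of 23.2 at 821 bp in replicate 2. The lists closed at 45.0 for both replicates together, 21.4 for replicate 2 and 31.1 for replicate 3, and the peak of mia ranked 23882, 19836 and 23974 of 30000 in them. sa, the paralog of Taf8, had 24.7 at 345 bp in replicate 2 and no promoter peak in the other lists. Taf12L, the paralog of Taf12, had 33.0 at 539 bp in replicate 2 and none elsewhere.

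Set pair by pair, each general gene had the higher signal in every list in which its paralog had a peak, except that Taf12 had no promoter peak in replicate 2, where Taf12L had 33.0. Taf6 and mia were the closest pair, at 100.8 against 54.1 in the list of both replicates, 40.4 against 27.3 in replicate 2 and 46.0 against 37.5 in replicate 3. Taf5 had 67.6 in replicate 2 and 64.8 in replicate 3, and Taf8 had 77.6 and 89.3, the latter at a second position 688 bp from its start. The weak testis peaks also lay farther out, at 345 to 831 bp from the start, whereas the peaks of the 5 general paralogs in the list of both replicates lay at 10 to 287 bp. The nearest reproducible summit was 60796 bp from can, 24332 bp from sa, 18584 bp from nht and 40367 bp from Taf12L. mia had one 2832 bp from its start, with a signal of 440.4, near its 3′ end and at the promoter of CG2519. None of these 5 testis genes had a divergent neighbour, and of all genes without one 19.3% were occupied. All 5 general paralogs had one, and of all genes with one 52.3% were occupied. In the list of both replicates, Taf5, Taf6, Taf8 and Taf12 shared their summits with Pex6, ash1, Mvb12 and Ho. Only that of Taf6 lay nearer the neighbour, 46 bp from the start of ash1 and 287 bp from its own. Signal at a shared summit cannot be assigned to the general gene alone. Of the 4 named by the rule, 0 were occupied, and of the 5 general paralogs only Taf4 was. With so few genes the pairs are given as values, without a test.

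**Figure D2:**
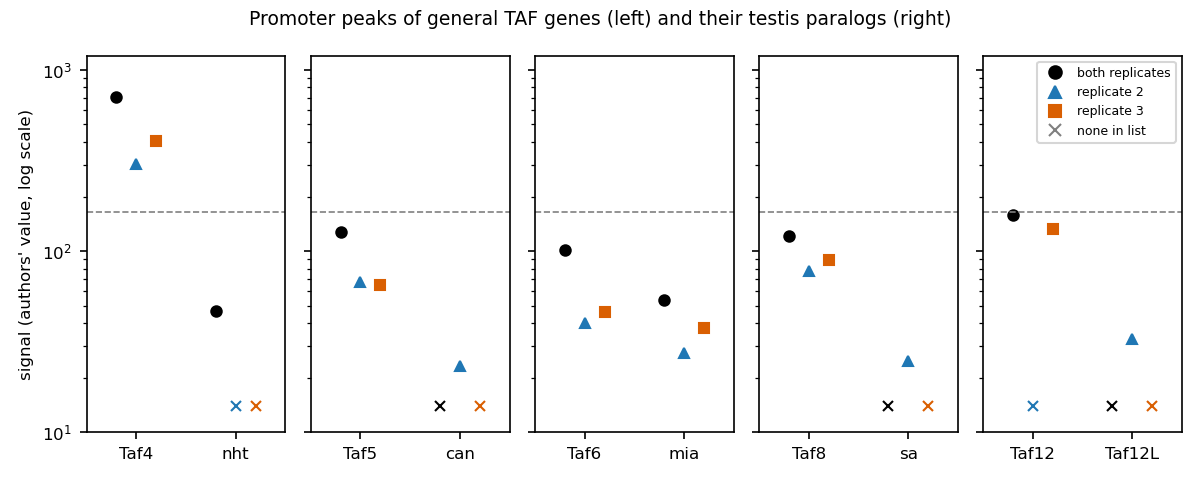
Signal of the strongest promoter peak (y axis, authors' value, log scale) of 5 general TAF genes, left in each panel, and their testis paralogs, right. Black circles are the list of both replicates, blue triangles replicate 2, orange squares replicate 3, crosses at the bottom lists without a promoter peak and the dashed line the lowest reproducible signal of the black circles, 164.6. Taf4 alone lies above that line, and the 5 testis genes lie at 54.1 or lower.

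In the TBP family the single occupied gene was Trf2, which replaces TBP at TATA-less promoters. Its signal was 167.0, close to the limit, and its summit lay 702 bp downstream of its start in a coding exon of lawc, whose start was 124 bp away. The peak came from replicate 3, where it had 167.4, and replicate 2 had no overlapping peak. It was the only occupied member more than 500 bp from its start. Replicate 2 held another promoter peak, of 44.1, 128 bp from the start. Tbp itself had a peak of 76.2 at 66 bp, ranked 14714, with 36.0 in replicate 2 and 44.6 in replicate 3. Trf, whose start is 47 bp from that of the Mediator gene MED20, had 48.1 in replicate 3 only. Reproducible summits of 198.0 and 168.1 lay farther inside the Trf2 locus, outside the promoter distance of Trf2. The first was in the 5′ UTR of lawc, within 1000 bp of a start of lawc, and replicate 2 had no overlapping peak there.

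Genes of TFIIA and TFIIB lay at some of the stronger peaks among the factors. TfIIA-S, the small TFIIA subunit, had a signal of 913.0, with 384.4 in replicate 2 and 517.9 in replicate 3, alone at its summit 61 bp before the start (peak chr3R:23890985-23891247). TfIIA-L, which encodes the large subunit precursor, had 465.4, 204.1 in replicate 2 and 267.6 in replicate 3. This summit was 178 bp before an internal start of TfIIA-L, and that of pll, the Pelle kinase of the Toll pathway, was 70 bp away. A second reproducible summit of 252.6 lay 23 bp from the same start of TfIIA-L. TfIIA-S-2, a further gene of the small subunit, had only a peak of 26.1 in replicate 2. TfIIB had 440.7, 206.8 in replicate 2 and 236.2 in replicate 3, 347 bp before its start and 73 bp from that of Bug22. The stronger summit of TfIIA-L and that of TfIIB thus lay nearer a neighbour's start. Their signal cannot be assigned to TfIIA-L or TfIIB alone. All 3 occupied genes had higher values in replicate 3 than in replicate 2, as the median peak did.

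TFIIE and TFIIF were not occupied. TfIIEalpha had 110.4 in the list of both replicates, 25.5 in replicate 2 and 90.1 in replicate 3, and TfIIEbeta had 67.6, none in replicate 2 and 60.6 in replicate 3. TfIIFalpha, the RAP74 subunit, had 103.9, with 45.4 in replicate 2 and 51.4 in replicate 3. That summit lay 91 bp from its start and 48 bp from that of CG1024. Replicate 3 also held a stronger promoter peak of TfIIFalpha, of 57.6, at 456 bp from the start. TfIIFbeta had no promoter peak in any list. Reproducible summits were found behind 3 of these genes, at other genes' promoters. They were 342.3 at Sugb behind TfIIEalpha, 210.6 at Hexo1 behind TfIIEbeta and 195.2 at gzl behind TfIIFalpha. TfIIS, the elongation factor, was occupied at 194.1, with 62.7 in replicate 2 and 126.3 in replicate 3, at 71 bp from its start. A second reproducible summit, 790 bp upstream of TfIIS, had 176.1, and vas and solo, whose starts are 899 bp from that of TfIIS, were in reach of both.

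All 3 TFIIH genes of the rule were occupied, a group too small to set against the 31.3% of all genes. Ssl1, a core subunit, had 5499 in the list of both replicates, the fifth strongest peak of the list, with 2738 in replicate 2 (rank 4) and 2780 in replicate 3 (rank 6). The peak, chr3L:22878681-22879133, lay between Ssl1 and the divergent gene Chro, which encodes the chromodomain protein Chromator. Its summit was in the 5′ UTR of Chro, 90 bp from the start of Chro and 195 bp from that of Ssl1, so the signal cannot be assigned to Ssl1 alone. Xpd, the helicase that links the core to the kinase module, had 252.4, 132.1 in replicate 2 and 110.8 in replicate 3, and shared its summit with LSm1. hay, the XPB helicase, had 241.9, 111.2 in replicate 2 and 131.2 in replicate 3, at 75 bp inside the gene. The start of CG34001 was as near to that summit, and the start of CG42535 was 219 bp away. Outside the rule, 6 of the 7 other TFIIH genes were occupied (85.7%, against 31.3% of all genes). Tfb4 had 469.4, mrn 434.3 and Cdk7, the kinase, 400.1, at summits shared with Vps29, CG12301 and snf. Mat1 of the kinase module was not occupied.

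Of the 13 polymerase genes, 6 were occupied (46.2%, against 31.3% of all genes). Polr2H, a subunit shared by all nuclear RNA polymerases, had 1453, with 793.4 in replicate 2 and 670.2 in replicate 3 and rank 132 (peak chr3L:21728573-21728991). Its summit was in the 5′ UTR of CG11247, 32 bp from the start of CG11247 and 158 bp from its own. Polr2F, also shared among the polymerases, had 1134, 513.0 in replicate 2 and 623.0 in replicate 3, rank 251, and no other gene in reach (peak chr3R:5371591-5371889). Polr2J had 704.7, 388.6 in replicate 2 and 310.1 in replicate 3, at a summit 53 bp from the start of CG15141. Polr2B, the second-largest subunit, had 632.1, 338.6 in replicate 2 and 303.0 in replicate 3, 13 bp from its start and 230 bp from that of 140up. These 4 were among the 1000 strongest peaks, with Ssl1, TfIIA-S and Taf4. Polr2C had 234.1, shared with GatC and PolG2. Polr2E, the third occupied shared subunit, had 222.4 with an uneven split of 54.8 in replicate 2 and 165.7 in replicate 3.

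The largest subunit, Polr2A, was not occupied. Its peak had 123.5, at a summit 217 bp from its start and 78 bp from that of CG11699. Replicate 2 held it among the top peaks at 91.7, whereas replicate 3 had 47.5. Polr2D, which shares its start region with Ada2a, had 128.4 and was in the top list of replicate 3 at 112.7, with no promoter peak in replicate 2. Polr2M, Polr2I and Polr2L had 76.2, 63.6 and 62.0 in the list of both replicates. Polr2G and Polr2K had none there, and 53.2 and 48.8 in replicate 3.

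**Figure D3:**
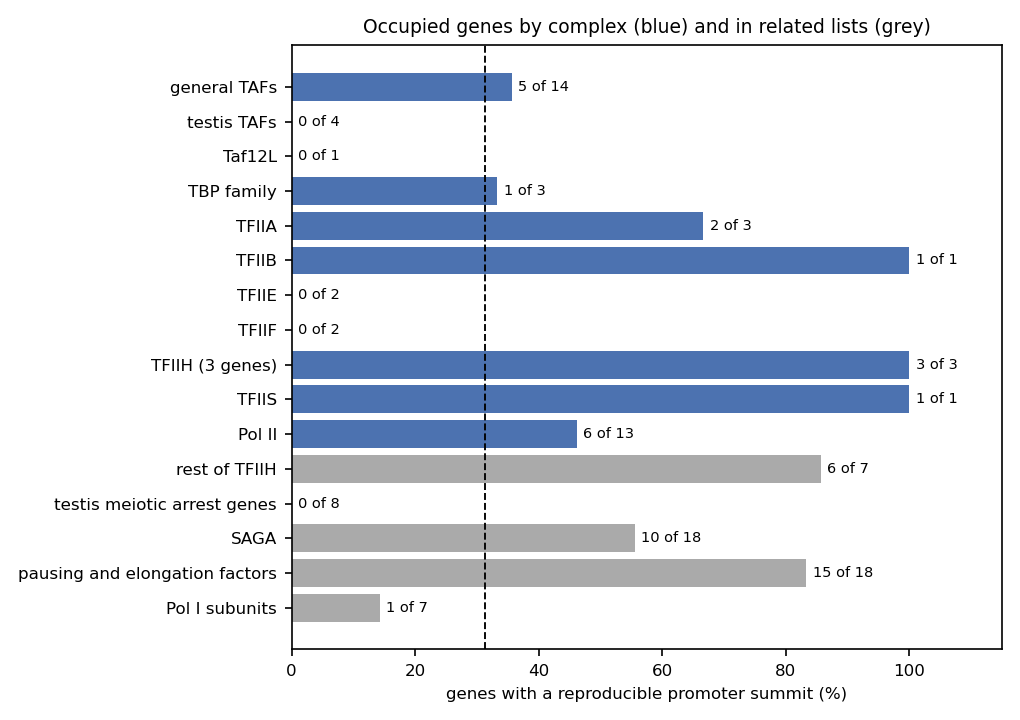
Share of genes with a reproducible promoter summit (x axis, percent) in each complex of the 47 genes (blue bars) and in related lists outside the rule (grey bars), with the number of occupied genes of all genes at each bar. The dashed line is the share of all protein-coding genes, 31.3%, and many bars rest on 4 genes or fewer.

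In the related lists outside the rule, pausing and elongation factors and TFIIH had the larger shares, and the Pol I and meiotic arrest lists the smaller. The lists were not split by divergent neighbour. Of all genes with such a neighbour 52.3% were occupied, against 19.3% without one. Of 18 pausing and elongation factors, 15 were occupied (83.3%, against 31.3% of all genes), led by Nelf-E at 1927, Nelf-A at 710.1 and lilli at 517.5. Their summits were shared with RpL14, CG3337 and NTPase, and replicate 2 had no peak overlapping that of lilli. The top list of replicate 2 held 12 of these factors, against 29.7% of all genes, and that of replicate 3 held 14, against 31.8%. Of 18 genes of SAGA, a histone acetyltransferase complex that contains several TAFs, 10 were occupied (55.6%, against 31.3% of all genes). They were led by the acetyltransferase Gcn5 at 797.7, Ada3 at 563.5 and Sgf29 at 498.7. The summits of Gcn5, Ada3 and Sgf29 were shared with ver, CG7536 and RpL29. Of 7 Pol I genes, 1 was occupied (14.3%, against 31.3% of all genes), Polr1D at 269.5, at a summit shared with brat. The last list held 8 further genes linked to meiotic arrest in the testis: Nxt1, achi, aly, comr, tomb, topi, vis and wuc. Of these, 0 were occupied (against 31.3% of all genes) and 0 were in the top list of either replicate.

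The signals of the occupied members spanned much of the range of the list. The median signal of their strongest promoter peak was 301.3, against 329.4 over all 4360 occupied genes, and 7 of 19 (36.8%) ranked among the 1000 strongest peaks, against 23.2%. The peaks lay mostly before the start. In 17 of 19 members (89.5%) the summit was upstream, against 82.4% of occupied genes, and the median distance to the start was 102 bp, against 130 bp. It was within 250 bp in 17 of 19 (89.5%), against 68.7%, the exceptions being TfIIB and Trf2. The summit was between protein-coding genes in 11 members, in an intron in 3, in a 5′ UTR in 4 and in a coding exon in 1.

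**Figure D4:**
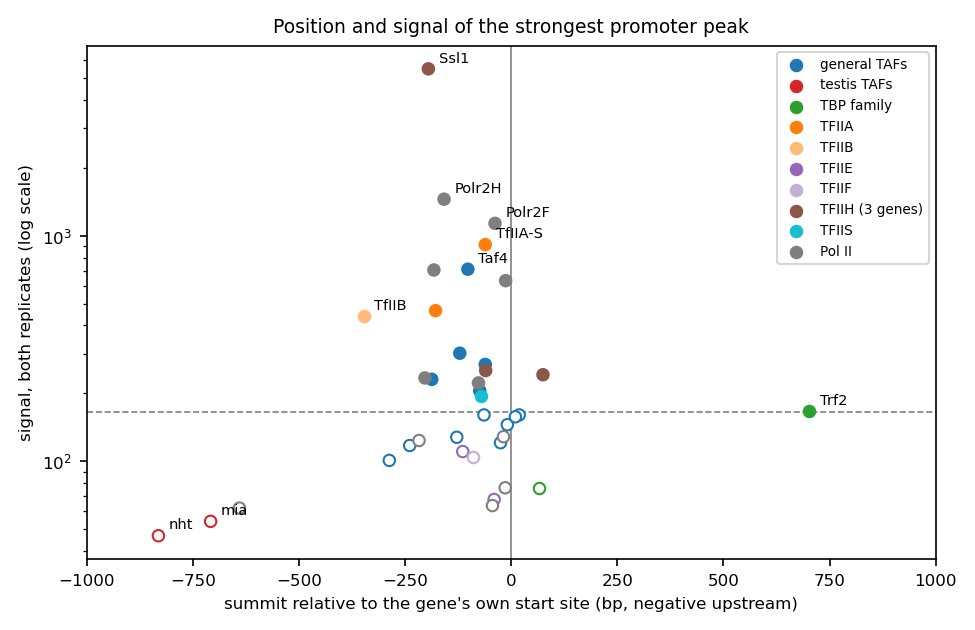
Position of the summit relative to the gene's own start (x axis, bp, negative upstream) and signal in the list of both replicates (y axis, authors' value, log scale) for the 38 genes with a promoter peak in that list. Filled circles are reproducible, open circles are not, colours are complexes, the vertical line is the start and the dashed line the lowest reproducible signal, 164.6. Most peaks lie just left of the start, Trf2 lies 702 bp downstream, and mia and nht lie farthest upstream.

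Most summits were shared with a neighbour. Of the 19 occupied members, 14 (73.7%) shared the summit with at least 1 other protein-coding gene, against 61.8% of occupied genes. The 5 alone were Taf4, Taf9, TfIIA-S, Polr2E and Polr2F. When each summit was given only to the gene with the nearest start, 11 of the 19 (57.9%) kept a summit, against 72.8% of occupied genes. TfIIA-L kept only its second summit, of 252.6, since the stronger was nearer to pll. Taf2, Taf13, Trf2, TfIIB, Ssl1, Polr2C, Polr2H and Polr2J then lost theirs to a neighbour, and the stronger peaks of Ssl1 and Polr2H were among them. The members then stood at 23.4%, against 22.7% of all genes.

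The replicates gave similar values for the stronger members and differed for some of the weaker. In 18 of the 19 the reproducible peak overlapped peaks of both replicates, and the log2 ratio of replicate 3 to replicate 2 had a median of 0.11 with an SD of 0.55, against 0.33 and 0.75 over 5553 peaks. It ran from -0.68 for Taf7 to 1.60 for Polr2E, with 1.01 for TfIIS and 0.02 for Ssl1. The top lists of both replicates held a promoter summit for 17 of the 19 (89.5%), against 78.6% of occupied genes, and the exceptions were Trf2 and Polr2E, in the top list of replicate 3 only. TfIIS counted in replicate 2 only through its other summit, at 86.0, and its main peak was below the top list there.

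**Figure D5:**
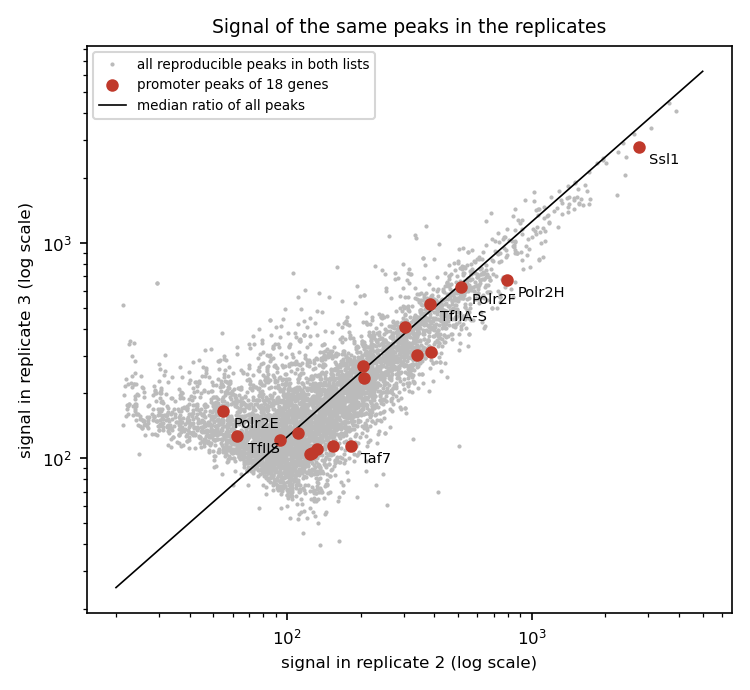
Signal in replicate 2 (x axis) and replicate 3 (y axis), both the authors' values on log scales, for the 5553 reproducible peaks found in both lists (grey) and the promoter peaks of 18 of the genes (red). The line has the median ratio of all peaks. TfIIA-S and Polr2F lie close to the line, Ssl1 and Polr2H lie below it at the upper right, and Polr2E and TfIIS lie above it at the lower left.

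The occupied members lacked several words of broadly expressed promoters at their summits. In windows of 50 bp to either side of the summit, the DRE (TATCGATA), bound by DREF, was found in 0 of 19 members, against 5.28% of 3657 promoter summits. The Motif 1 core (GGTCACAC), bound by M1BP, was found in 0 of 19, against 3.39%, and the E-box CAGCTG in 0 of 19, against 6.95%. At these background shares few matches can be met in 19 windows, which limits what a count of 0 shows. Windows of 100 bp to either side also held 0 of each, against 8.89%, 6.73% and 13.8%. The shorter CGATA was found in 4 of 19 (21.1%), against 26.8%, in Taf9, Ssl1, Xpd and Polr2J. Of these, Taf9 and Polr2J hold it in both orientations in the windows printed above. The match marked in the printed window of TfIIA-S reaches past 50 bp from the summit and was not counted. The Smad box GTCT was found in 7 of 19 (36.8%), against 32.6%. The Brk core GGCGCC was found in 1, Trf2, against 2.60%, and GAGAGAG in the same window, against 1.59%. All searches covered both strands, and DRE matches always hold CGATA.

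Words picked on other genes gave similar shares. Among 3636 promoter summits that served no member, the 6-base words with at least 2 G or C that stood out most over windows 500 bp to either side began with TATCGA (15.6%, against 4.08% beside the summit), and ACACTG, read CAGTGT on the other strand, was the first outside the CGATA family (12.0%, against 3.82%). Each was found in 3 of 19 occupied members (15.8%), TATCGA in Taf9, Ssl1 and Xpd and CAGTGT in TfIIS, Polr2F and Polr2J. The match at Polr2F lay outside the stretch printed above.

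In the promoter window from 250 bp before to 50 bp after the start, the DRE, the Motif 1 core and the E-box were found in a larger share of the members that were not occupied. The DRE was found in 0 of 19 occupied members and in 4 of 28 others, Taf3, Tbp, Polr2D and Polr2L, against 9.36% of all promoters and 14.7% of those of occupied genes. The Motif 1 core was found in 1 of 19, Taf4, and in 7 of 28, against 7.70% of all promoters and 12.7% of those of occupied genes. The E-box was found in 1 of 19, hay, and in 7 of 28, can, nht and Taf12L among them, against 17.7% and 21.9%. CGATA was found in 13 of 19 occupied members (68.4%) and in 17 of 28 others (60.7%), together 30 of the 47 (63.8%), against 47.4% of all promoters and 56.6% of those of occupied genes. These are matches of letters in a fixed window and were not tested.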

How the data were processed

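ChIP-seq peak lists of 2 biological replicates of 1 group were used in build dm6. Sonicated fragments were 200 to 800 bp, per the labels, and 1 control served both replicates, per the deposited manifests. The authors deposited relaxed lists of 30000 peaks for each replicate and for the replicates jointly, and an optimal list set by irreproducible discovery rate, here the reproducible list. Aligner, caller, versions and thresholds were not stated in the labels or manifests. The deposited signal value per peak is the authors' own and served to order and describe peaks, with replicate ratios set beside their median over all matched peaks. The deposited −log10 q reached a ceiling of 3.95 in 76.0% of reproducible peaks and was not used to rank. Read totals were not used here, so depth is unknown, and no interval or floor is given.

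Start sites came from the Ensembl annotation BDGP6.54, release 115. Sequence was read from the dm6 (Release 6) genome, whose arms held every peak and gene. Symbols were matched with case, e(y)1 is Taf9 in this annotation, and Taf12L met the rule without being among the 4 named testis genes. A summit counted for every gene with a TSS within 1000 bp, and the strongest was used. The top list of a replicate held its 5867 strongest peaks. A reproducible peak took, for each replicate, the signal of its strongest overlapping peak. Motifs were searched as exact words. Every member was named, with fuller values for the testis genes, their paralogs and up to 4 genes of each complex with the strongest peaks. Members, lists and motifs were chosen with earlier results of these data known, and CAGTGT and the other words picked at summits after seeing the data. The counting code was checked on simulated peaks with planted promoter summits, and no statistical test was made of any count. Alternatives were other distances, lists, replicates, peak choices, windows and start sites. Python 3.11.15, numpy 2.4.6, pandas 2.3.3 and matplotlib 3.10.9 were used. The dm3 lists were not used, and the list of Pol III genes is not reported here.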

Additional observations from a re-analysis of the deposited data

How the results depend on the processing

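The count of 19 occupied members (40.4%, against 31.3% of all genes) was 10 in the stronger part of the list (21.3%, against 18.7%). That part held 2933 peaks. It was 38 in the whole relaxed list (80.9%, against 63.2%) and 11 with the nearest start only (23.4%, against 22.7%). Distances of 500 and 2000 bp gave 18 (38.3%, against 27.9%) and 24 (51.1%, against 36.8%). Leaving out a replicate gave 21 in each case. Without replicate 3, Taf5, Taf8, Taf11 and Polr2A came in and Trf2 and Polr2E dropped out, and without replicate 2, Taf12 and Polr2D came in. The 5 general TAF genes (35.7%, against 31.3% of all genes) became 8 at 2000 bp (57.1%, against 36.8%). Taf10, Taf10b and Taf12 came in, through summits within 1000 bp of other genes' starts. Taf10 and Taf10b came in through the same summit, at Snx21 and aph-1, and Taf12 through one at CG18476. The relaxed list gave 13 (92.9%, against 63.2%). The general TAF genes fell to 2 in the stronger part (14.3%, against 18.7%) and to 3 with the nearest start only (21.4%, against 22.7%). Both of these were below the share of all genes. Leaving out replicate 3 gave 8 (57.1%, against 29.7%), and leaving out replicate 2 gave 6 (42.9%, against 31.8%). The testis TAF genes stayed at 0 except for 2 in the relaxed list, mia and nht. The cause of these shifts was not tested. The median signal of 301.3 was 268.7 with the peak nearest the start. The motif counts of 0 held in windows of 100 bp to either side. No paired analysis was possible because there was 1 group and no contrast. Depth was unknown, the replicates share a control, and a summit between divergent genes cannot be assigned to either.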
